A study of Mus musculus with 5 samples.

Results

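The 9 genes described here encode core enzymes of the citric acid cycle and the entry enzyme that feeds it: Pdha1, Cs, Idh3a, Ogdh, Dlst, Suclg1, Sdha, Fh1 and Mdh2. They were taken by symbol from a deposited table of 13966 genes, all 9 were found, and all 9 passed the filter on low values that 8973 genes passed. RNA was measured in 5 libraries of hepatocytes, the main cells of the liver, sorted by flow cytometry from ICR mice, an outbred stock, that had received a fluorescent probe of fatty acid oxidation. With bezafibrate, a drug that activates peroxisome proliferator-activated receptors, there were a negative, a positive and a high gate of probe signal. Without it there were a negative and a positive gate, called control here. Each of these 5 groups has 1 library. All mice received the probe and no genetic change is given in the labels. The sources used here do not give age, sex, the drug's dose and duration, the number of mice behind a library or whether gates came from the same liver, so drug and mouse cannot be told apart.

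Pyruvate dehydrogenase turns pyruvate into acetyl-CoA, and beta-oxidation of fatty acids yields the same acetyl-CoA. Citrate synthase joins it to oxaloacetate, and the cycle then regenerates oxaloacetate through isocitrate, oxoglutarate, succinyl-CoA, succinate, fumarate and malate, passing electrons to the respiratory chain. In liver the cycle also supplies oxaloacetate for glucose synthesis and citrate for fatty acid synthesis, so its enzymes serve both breakdown and synthesis.

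With bezafibrate, 8 of the 9 genes were higher in both gates and Fh1, fumarate hydratase, was lower in both. Suclg1, a subunit of succinyl-CoA synthetase, stood highest above control, at 3.38-fold in the negative gate and 3.68-fold in the positive gate. Sdha and Mdh2 were about 2-fold higher in both gates, while Fh1 was 0.812-fold and 0.643-fold the control level. The gates themselves differed less: none of the 9 genes differed 2-fold between any pair of gates of the same treatment. Few genes did at all, from 0.145% to 0.334% of all genes, depending on the pair.

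All values are the deposited normalised read counts, from which whole reads could be recovered. The libraries held between 5056884 reads (control positive) and 7146578 reads (bezafibrate negative), of which the 9 genes took 2269 to 6631. The ribosomal RNA precursor Rn45s moved with treatment: it took 10.5% of reads in bezafibrate negative against 36.3% in control negative, 18.5% in bezafibrate positive against 34.8% in control positive, and 13.5% in bezafibrate high. Of reads outside Rn45s, the 9 genes together took 0.104% in bezafibrate negative against 0.0709% in control negative, 0.0949% in bezafibrate positive against 0.0688% in control positive, and 0.0975% in bezafibrate high. The part of Rn45s in the differences was not tested beyond this and the other scalings given with the counts. Hepatocyte markers, of which 9 of 10 were in the table and none at 0, had higher sums with bezafibrate too. They summed to 116156 in bezafibrate negative against 55632 in control negative, 85144 in bezafibrate positive against 55009 in control positive, and 94080 in bezafibrate high. Of these 9 markers, 4 were at least 2-fold higher in the negative gate and 1 in the positive gate, beside 10.2% and 4.94% of all genes. For 7 of them the difference lay above 0 in the negative gate, where 51.4% of all genes lay, and for 2 below. In the positive gate it lay above 0 for 6, where 50.4% of all genes lay, and below for 3. Alb was the highest of these markers and weighs most in the sums. Kupffer cell markers (9 of 13 in the table) summed to 76.8 to 147, most of it Slc40a1, with the defining Clec4f at 0.133 to 1.73. Endothelial markers (9 of 10) summed to 20.5 to 36.5, with Cdh5 at 0 in control positive. Stellate cell markers (10 of 11) summed to 33.4 to 48.5 in the bezafibrate libraries and 110 to 118 in the control libraries, most of it Reln, with Lrat at 0 in control positive. Cholangiocyte, lymphocyte and platelet lists stayed at or under 13.1, erythroid genes at 24.1 to 45.5, and B cell and neutrophil lists had no gene with a value in the table used here. The part of these other cells in the differences was not tested. In such bulk libraries, fewer cells with a transcript and less of it per cell cannot be told apart.

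The promoters of 3 genes are shown because Suclg1 and Fh1 differed in opposite directions and Sdha carried the motif matches. Each is the 250 bases before the RefSeq start, in GRCm38.p6, read 5′ to 3′ on the gene's strand, and only those 250 bases were searched. Capitals mark matches on either strand to GCGC, any base, then TGCGC, the core motif of NRF1, a factor of nuclear genes for mitochondrial proteins. The GENCODE gene spans given for Suclg1 and Sdha start elsewhere. They take in the last 123 of the bases shown for Suclg1 and the last 40 of those for Sdha, with 1 of its matches. The span of Fh1 starts right after the bases shown and takes in 0 of them.
Suclg1 (chr6:73248255-73248504, plus strand): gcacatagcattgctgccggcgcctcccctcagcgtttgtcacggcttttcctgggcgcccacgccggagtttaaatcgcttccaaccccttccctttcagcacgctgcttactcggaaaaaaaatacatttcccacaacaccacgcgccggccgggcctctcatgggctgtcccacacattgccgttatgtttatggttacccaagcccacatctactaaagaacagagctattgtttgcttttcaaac
Fh1 (chr1:175625636-175625885, minus strand): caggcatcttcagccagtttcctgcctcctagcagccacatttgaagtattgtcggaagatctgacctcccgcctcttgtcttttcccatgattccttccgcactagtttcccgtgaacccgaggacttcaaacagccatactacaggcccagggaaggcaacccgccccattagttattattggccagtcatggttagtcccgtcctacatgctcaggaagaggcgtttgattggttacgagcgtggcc
Sdha (chr13:74350241-74350490, minus strand): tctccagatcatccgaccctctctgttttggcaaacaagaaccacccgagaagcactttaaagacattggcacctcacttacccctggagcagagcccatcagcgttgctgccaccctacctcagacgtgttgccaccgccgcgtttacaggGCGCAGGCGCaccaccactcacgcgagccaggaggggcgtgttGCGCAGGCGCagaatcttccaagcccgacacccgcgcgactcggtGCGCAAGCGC
Promoters of 8 of the 9 genes were matched by symbol and searched on both strands, without removing overlaps between motifs. The NRF1 core was in 3.74% of all 32851 promoter windows and, of these 8 genes, in Sdha, with 3 matches. The GC box GGGCGG, in 32.7% of all windows, was in the window of Cs, Dlst, Fh1 and Mdh2 and in 2 of the 6 windows of Ogdh. The motif TNAAGGTCA of estrogen-related receptors (1.14% of windows), a direct repeat of AGGTCA with 1 base between the copies, which peroxisome proliferator-activated receptors bind (0.0335%), and the TATA motif TATAA (22.8%) were in 0 of the 8. These letters are a description of the windows and identify no bound factor.

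In bezafibrate negative against control negative, the 9 genes had a median difference of 0.85 on the log2(value + pseudocount) scale, against 0.02 for all 8973 genes. Of the 9 genes, 8 lay above 0, where 51.4% of all genes lay, and 4 (Cs, Suclg1, Sdha and Mdh2) were at least 2-fold higher, where 10.2% of all genes were. None was at least 2-fold lower, where 5.86% of all genes were. In bezafibrate positive against control positive, the median was 0.69 against 0.00 for all genes. Again 8 lay above 0, beside 50.4% of all genes, and 2 (Suclg1 and Sdha) were at least 2-fold higher, beside 4.94% of all genes. None was at least 2-fold lower, beside 2.91%. Summed over the 9 genes, the normalised read count was 884 in bezafibrate negative against 506 in control negative, a ratio of 1.75 (95% interval 1.67 to 1.83), and 731 in bezafibrate positive against 489 in control positive, a ratio of 1.49 (1.42 to 1.57). Intervals of ratios are exact Clopper-Pearson intervals of the recovered reads. Those of levels are exact Poisson intervals, and those of the difference of the gate differences use a normal approximation on the log of the reads. All cover counting error only, since without molecular identifiers a read is not an independent molecule. With 1 library per group, no difference has a replicate check.

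The choice of scaling moved all genes together. Dividing by column totals shifted the median of all genes to 0.25 in the negative gate and 0.20 in the positive gate, and dividing by totals without Rn45s shifted it to -0.22 and -0.11. Relative to the median of all genes, the 9 genes lay 0.82 to 0.83 higher in the negative gate and 0.69 higher in the positive gate under the deposited scaling and both of these. Rescaling a library shifts all its genes alike, apart from the pseudocount and the filter, so this offset was bound to stay and is no check. Without Rn45s in the totals, 2 of the 9 genes (Suclg1 and Sdha) were at least 2-fold higher in the negative gate and 1 (Suclg1) in the positive gate, while column totals gave 5 and 3. The split of 2-fold calls over all genes was 919 higher and 526 lower in the negative gate as deposited, 1444 and 267 by column totals, and 545 and 1053 without Rn45s. In the positive gate it was 443 higher and 261 lower, 820 and 131, and 333 and 366 under the same scalings. The 8 genes stayed above 0 and Fh1 below 0 in both treatment comparisons under every alternative tried. An additive fit of gate and treatment with limma, over the 4 negative and positive libraries, leaves 1 residual degree of freedom. Its error is the difference between gates in how they compare by treatment, so it is no test between replicates. It called 8 of the 9 genes higher, where 24.5% of all genes were, and 1, Fh1, lower, where 20.8% of all genes were. The calls of Dlst and Fh1 depended on the setting. Dlst was not called with either other pseudocount, with no filter, by totals without Rn45s or by edgeR, and Fh1 was not called by column totals.

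**Figure D1:**
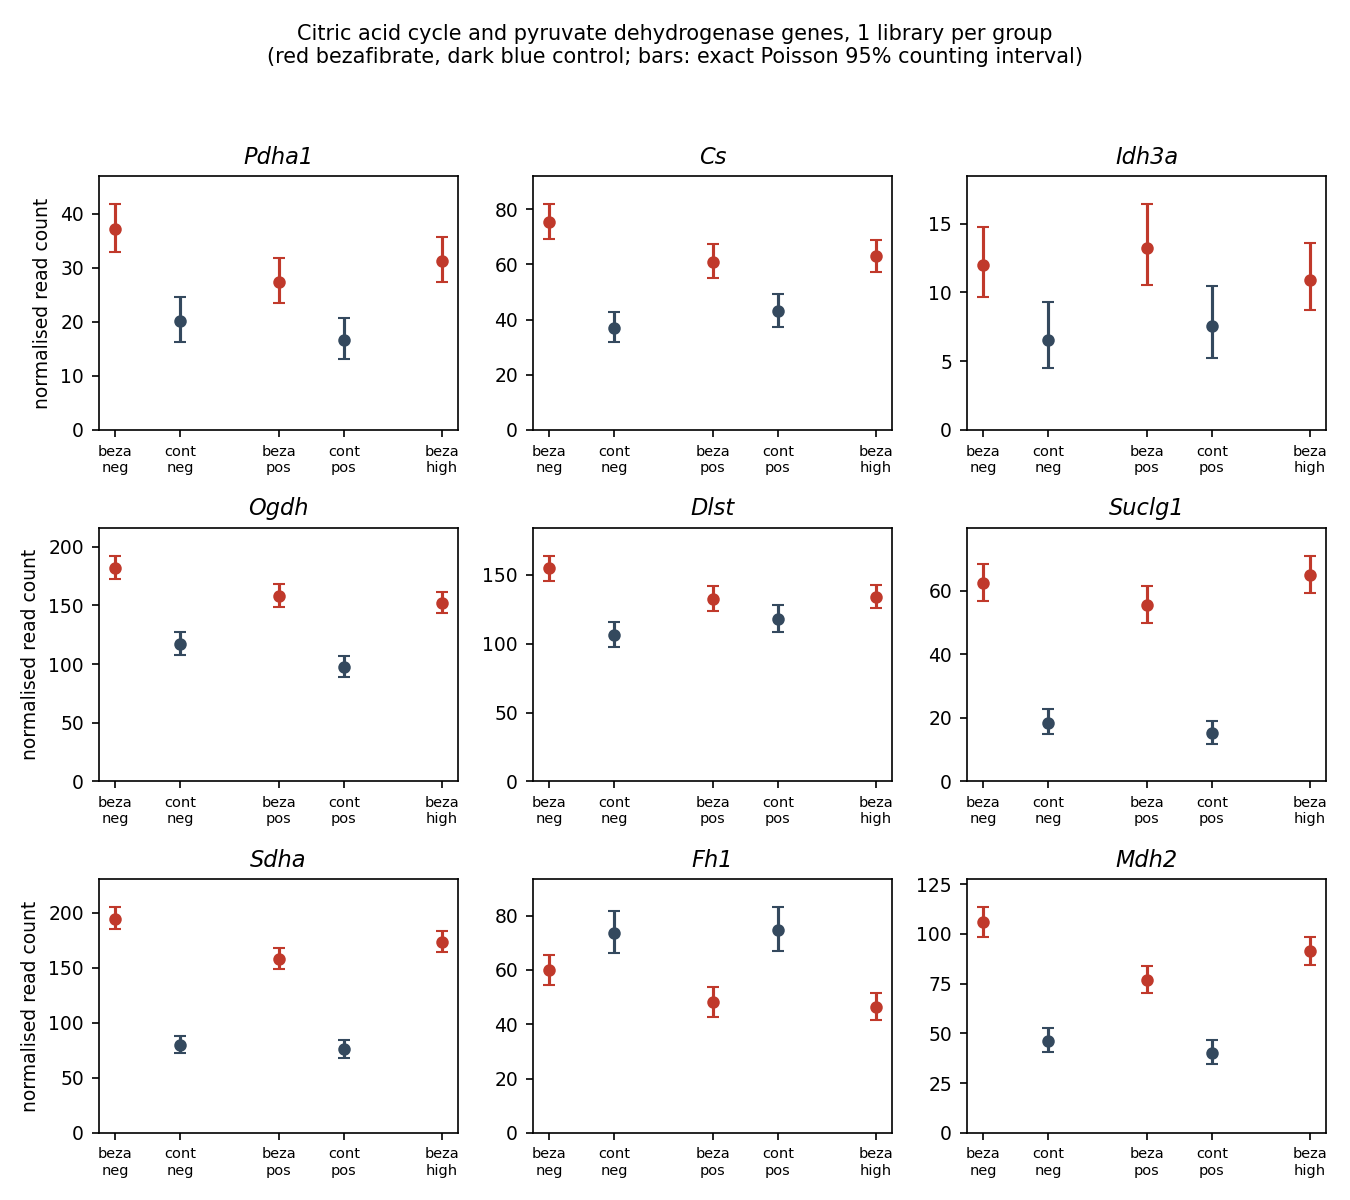
Normalised read counts (y axis, linear from 0) of the 9 genes in the 5 libraries (x axis), with exact Poisson 95% counting intervals, bezafibrate in red and control in dark blue. For 8 genes the bezafibrate libraries sit above the control library of the same gate, Suclg1 most widely (62.5 in bezafibrate negative against 18.5 in control negative), and for Fh1 they sit under it (48.1 in bezafibrate positive against 74.8 in control positive).

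Pdha1 (chromosome X, 160122209 to 160138413, minus strand, GRCm38) encodes the catalytic alpha subunit of pyruvate dehydrogenase, the subunit whose phosphorylation switches the complex off. It had 37.1 in bezafibrate negative against 20.1 in control negative, 27.4 in bezafibrate positive against 16.6 in control positive, and 31.3 in bezafibrate high. All 3 bezafibrate libraries were above both control libraries, and the ratios were 1.84 (1.46 to 2.34) in the negative and 1.65 (1.26 to 2.19) in the positive gate. The share of all genes whose treatment groups lay apart in this way was not counted, here or for the genes below. At the deposited scaling the ratio's interval left out 1 for 61.3% of all genes in the negative and 50.3% in the positive gate. Map3k15 on the other strand shares 603 exon bases with Pdha1, and 16.9% of the 50-base words of its exons occur in that gene or in 4930519F09Rik. Its own value was at most 0.473 in any library, and the sources used here do not say how reads of the shared stretch were assigned.

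Cs (chromosome 10, 128337734 to 128362479, plus strand) encodes citrate synthase, which commits acetyl-CoA to the cycle. Its values were 75.2 in bezafibrate negative against 37.0 in control negative, 60.8 in bezafibrate positive against 42.9 in control positive, and 62.9 in bezafibrate high. The treatment groups did not overlap, with ratios of 2.03 (1.72 to 2.42) in the negative and 1.42 (1.19 to 1.69) in the positive gate. Of such words in its own exons, 4.0% also occur in Csl, so a small part of its reads is uncertain. Idh3a (chromosome 9, 54586334 to 54604661, plus strand), the catalytic subunit of the NAD-dependent isocitrate dehydrogenase, was the lowest of the group, per kb of transcript too. It had 12.0 in bezafibrate negative against 6.57 in control negative, 13.2 in bezafibrate positive against 7.55 in control positive, and 10.9 in bezafibrate high. Its ratios of 1.83 (1.21 to 2.83) and 1.75 (1.17 to 2.68) rest on 90 and 84 reads with bezafibrate and 32 and 35 reads in control, and had the widest intervals of the 9 genes relative to their size.

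Ogdh (chromosome 11, 6291633 to 6356642, plus strand) and Dlst (chromosome 12, 85110833 to 85134845, plus strand) encode the decarboxylating and the succinyl-transferring component of the oxoglutarate dehydrogenase complex. Ogdh had 182 in bezafibrate negative against 117 in control negative, 158 in bezafibrate positive against 97.7 in control positive, and 152 in bezafibrate high. Dlst had 155 in bezafibrate negative against 106 in control negative, 132 in bezafibrate positive against 118 in control positive, and 134 in bezafibrate high. For both genes every bezafibrate library was above both control libraries. The partners differed in how the gates compared: the ratio of Ogdh was 1.55 (1.41 to 1.72) in the negative and 1.62 (1.45 to 1.81) in the positive gate, while that of Dlst was 1.45 (1.31 to 1.62) and 1.12 (1.01 to 1.25). The ratio of Dlst in the positive gate was the nearest to 1 among the 9 genes, and its interval took in 1 by totals without Rn45s (0.928 to 1.15) and with DESeq2 size factors.

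Suclg1 (chromosome 6, 73248382 to 73276911, plus strand) encodes the alpha subunit shared by the ATP-forming and the GTP-forming succinyl-CoA synthetase. Its normalised read counts were 62.5 in bezafibrate negative against 18.5 in control negative, 55.5 in bezafibrate positive against 15.1 in control positive, and 65.0 in bezafibrate high. The 3 bezafibrate libraries lay far above both control libraries, at ratios of 3.38 (2.70 to 4.29) in the negative and 3.68 (2.84 to 4.82) in the positive gate. Its beta subunits were nearer to control. Sucla2, of the ATP-forming enzyme, had ratios of 2.04 (1.61 to 2.59) and 1.79 (1.40 to 2.30), and Suclg2, of the GTP-forming enzyme, 2.07 (1.82 to 2.37) and 1.77 (1.54 to 2.04). In both gates the interval of Suclg1 lay above those of both beta subunits.

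Sdha (chromosome 13, 74322254 to 74350280, minus strand) encodes the flavoprotein of succinate dehydrogenase, which is also complex II of the respiratory chain. It had 195 in bezafibrate negative against 80.1 in control negative, 158 in bezafibrate positive against 76.1 in control positive, and 173 in bezafibrate high. Every bezafibrate library was well above both control libraries, with ratios of 2.43 (2.17 to 2.73) and 2.08 (1.84 to 2.35). The other subunits of the complex went the same way: the iron-sulphur subunit Sdhb at 2.59-fold in the negative and 1.79-fold in the positive gate, and the membrane anchors Sdhc at 3.33-fold and 2.41-fold and Sdhd at 3.19-fold and 2.06-fold.

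Fh1 (chromosome 1, 175600374 to 175625635, minus strand) encodes fumarate hydratase, which turns fumarate into malate in mitochondria and, as a form made from the same gene, in the cytosol. It had 59.9 in bezafibrate negative against 73.7 in control negative, 48.1 in bezafibrate positive against 74.8 in control positive, and 46.4 in bezafibrate high. All 3 bezafibrate libraries were under both control libraries, with ratios of 0.812 (0.705 to 0.936) in the negative and 0.643 (0.549 to 0.752) in the positive gate. On the log2(value + pseudocount) scale its difference was -0.30 and -0.63, and over the alternatives tried it ran between -0.55 and -0.07 in the negative and between -0.74 and -0.42 in the positive gate. By column totals the interval of its ratio in the negative gate took in 1 (0.829 to 1.10). The span of Fh1 overlaps that of Kmo on the other strand, with 0 shared exon bases. Kmo had 123 in bezafibrate negative against 83.4 in control negative, and 101 in bezafibrate positive against 93.3 in control positive. At the deposited scaling it was thus higher with bezafibrate, though by little in the positive gate. Its counting interval and its values under other scalings are not given here.

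Mdh2 (chromosome 5, 135778480 to 135790398, plus strand) encodes the mitochondrial malate dehydrogenase, which closes the cycle and takes part in the malate-aspartate shuttle. Its values were 106 in bezafibrate negative against 46.2 in control negative, 76.9 in bezafibrate positive against 40.3 in control positive, and 91.3 in bezafibrate high. The bezafibrate libraries were all above the control libraries, at ratios of 2.29 (1.97 to 2.67) and 1.91 (1.61 to 2.27). The transcripts of the enzymes on either side of malate thus differed in opposite directions in these libraries, Fh1 lower and Mdh2 higher.

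**Figure D2:**
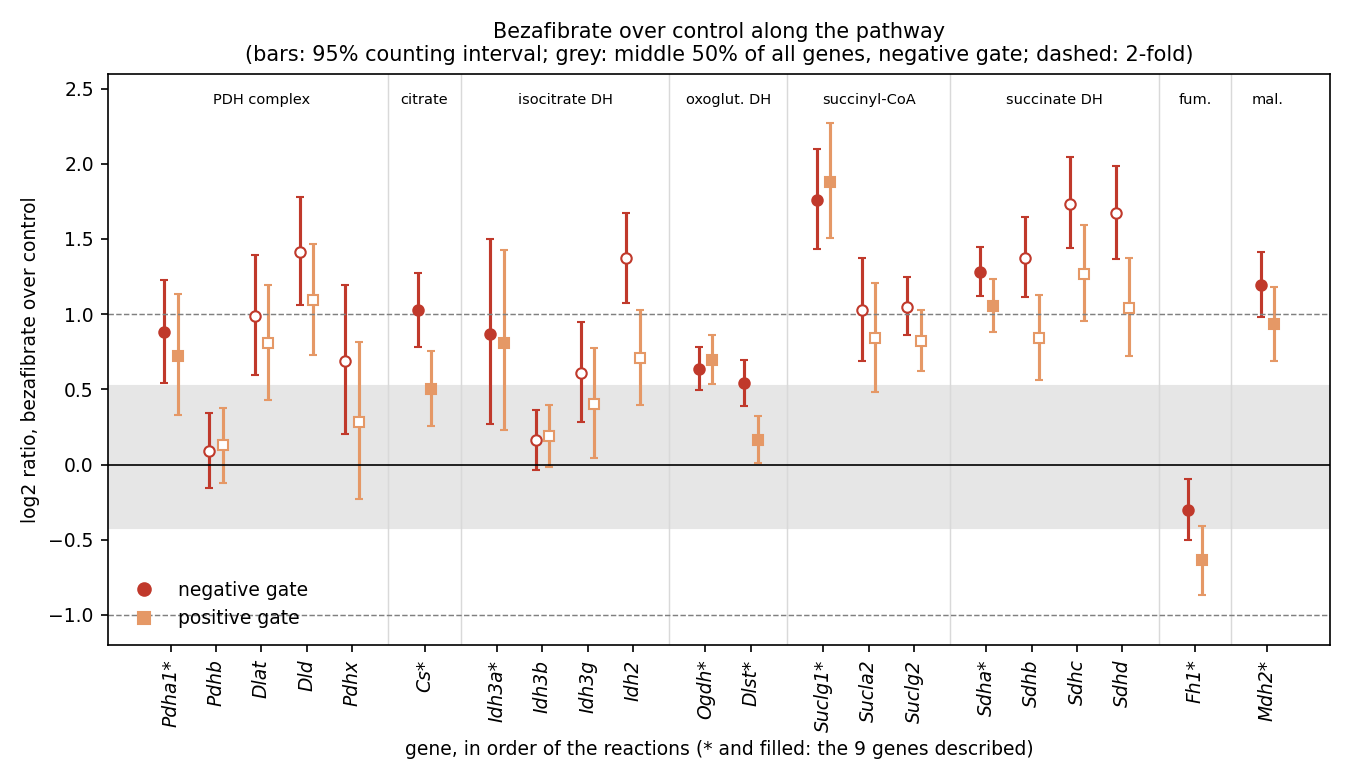
Log2 ratio of bezafibrate over control (y axis) for the 9 genes (filled) and other subunits of the same enzymes (open), in order of the reactions (x axis), with 95% counting intervals and the negative gate as circles, the positive gate as squares. Fh1 is the lone gene whose intervals, at the deposited scaling, lie under 0 in both gates (ratios 0.812 and 0.643), and Suclg1 is the highest in the positive gate (3.68).

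Since the 9 genes differed unequally, the make-up of their summed reads differed too. Fh1 held 6.77% (exact binomial 95% interval 6.18 to 7.40) of them in bezafibrate negative against 14.6% (13.2 to 16.0) in control negative, 6.58% in bezafibrate positive against 15.3% in control positive, and 6.04% in bezafibrate high. Suclg1 was the reverse, with 7.07% (6.47 to 7.72) in bezafibrate negative against 3.65% (2.95 to 4.47) in control negative, 7.59% in bezafibrate positive against 3.09% in control positive, and 8.47% in bezafibrate high. Sdha held 22.0% in bezafibrate negative against 15.8% in control negative, and 21.6% in bezafibrate positive against 15.6% in control positive. Dlst held 17.5% in bezafibrate negative against 21.0% in control negative, and 18.1% in bezafibrate positive against 24.2% in control positive. These shares do not depend on the scaling of a library, and for Fh1 and Suclg1 every bezafibrate library lay on the same side of both control libraries.

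**Figure D3:**
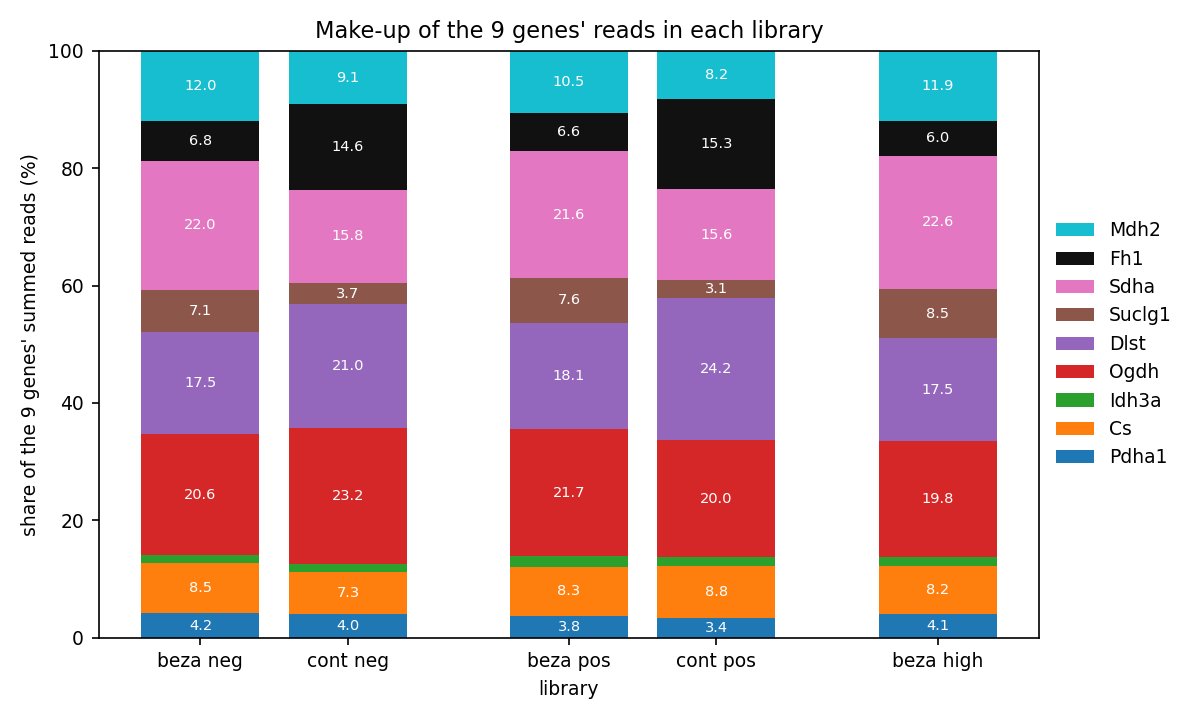
Share of the summed reads of the 9 genes that each gene took (y axis, percent) in each library (x axis). Fh1 in black takes 6.04% to 6.77% in the 3 bezafibrate libraries and 14.6% to 15.3% in the 2 control libraries, while Suclg1 takes 7.07% to 8.47% in the bezafibrate libraries and 3.09% to 3.65% in the control libraries.

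To compare levels between genes, values were divided by transcript length in kb. By the mean over the 5 libraries, Mdh2 was highest at 49.5 normalised read counts per kb, then Sdha at 47.1, Dlst at 46.7, Ogdh at 34.3, Suclg1 at 28.5, Fh1 at 23.0, Cs at 19.1, Pdha1 at 9.31 and Idh3a at 3.90. Within bezafibrate negative the order opened with Mdh2 at 72.6 per kb (Poisson 95% interval 67.6 to 77.8) and Sdha at 67.2 (63.8 to 70.7), neighbours whose intervals overlap, and Dlst followed at 55.9 (52.8 to 59.3). In both control libraries Dlst was highest, at 38.5 per kb (35.2 to 41.9) in control negative and 42.7 (39.2 to 46.5) in control positive. Fh1 stood 7th in all 3 bezafibrate libraries, against 4th in control negative and 2nd in control positive. Its interval overlaps that of Cs in bezafibrate negative (20.7 to 24.9 per kb for Fh1) and bezafibrate positive (16.2 to 20.4), and those of Mdh2, Sdha and Ogdh in control positive (25.5 to 31.5), so these places are not separated from those neighbours. In control negative, Mdh2 at 31.7 (27.7 to 36.2), whose interval overlaps that of Dlst, Ogdh at 28.4, Fh1 at 28.0 and Sdha at 27.6 per kb had overlapping intervals, so their order there is not separated. Cs, Pdha1 and Idh3a kept the 6th, 8th and 9th place in every library, though in control negative the interval of Cs also overlaps that of Suclg1. The order depends on the transcript chosen: with the union of all annotated exons as length, 2 of the 9 genes kept their place.

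Transcript length also moved with the treatment differences, as seen when genes were put in 5 equal bins of length. In the shortest bin, up to 1906 bases, all genes had a median difference of 0.37 in the negative and 0.25 in the positive gate, against -0.15 and -0.10 in the longest bin. Suclg1 (1519 bases) and Mdh2 (1456 bases) belong to the shortest bin. Idh3a, Dlst and Fh1 belong to the second, with medians of 0.08 and 0.04, and Pdha1, Cs and Sdha to the third, with -0.01 and -0.02. Ogdh, in the fourth with -0.04 and -0.03, was higher by 0.63 and 0.69. Each of the 8 genes lay above the median of its length bin in both gates and Fh1 lay under it. The part of length in the differences was not tested further.

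**Figure D4:**
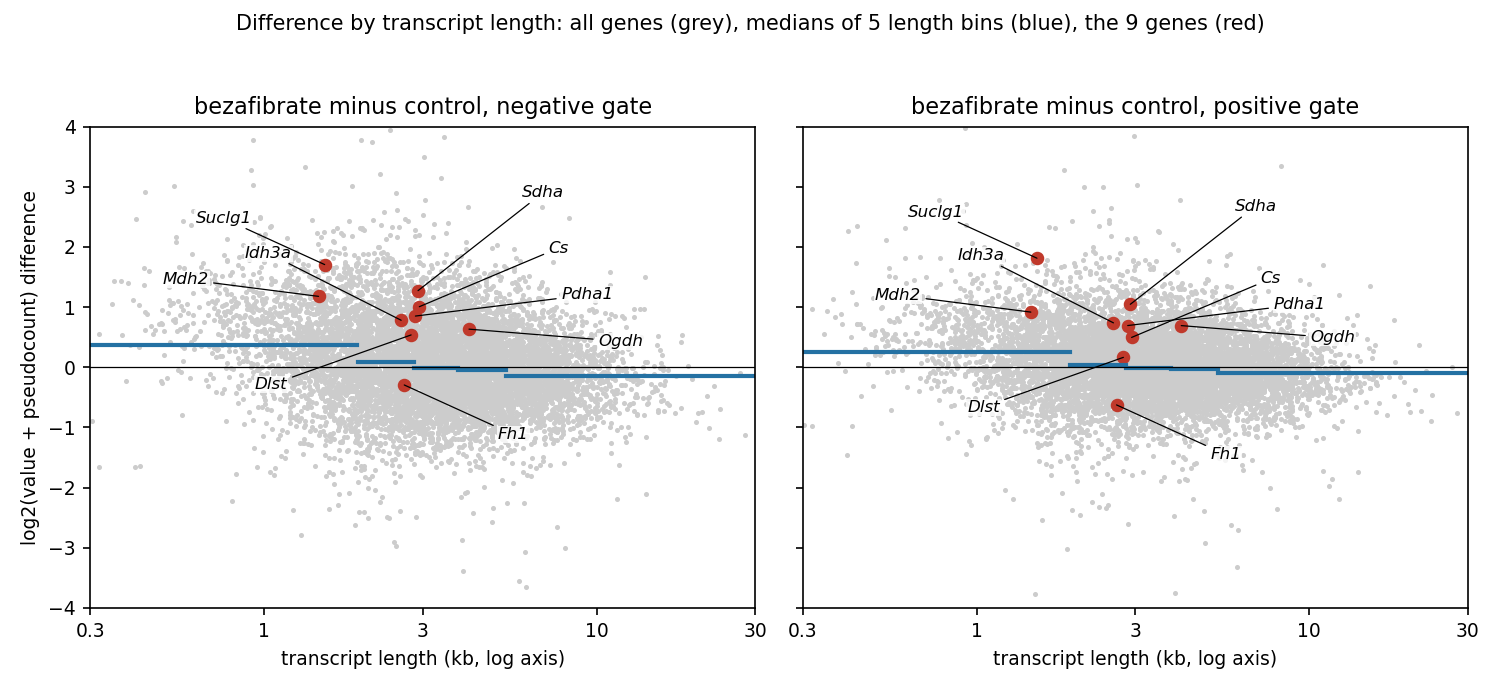
Difference between bezafibrate and control on the log2(value + pseudocount) scale (y axis) against transcript length in kb (x axis, log), negative gate left and positive gate right, for genes analysed (grey), the medians of length bins (blue) and the 9 genes (red); a few genes lie beyond the axes. The blue steps descend to -0.15 and -0.10 from left to right, and of the red points Fh1 lies under its step in both panels (-0.30 and -0.63).

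Among control mice, the positive gate differed little from the negative gate for these genes. The median difference of positive minus negative was -0.07, with 4 genes above 0, where 52.1% of all genes lay, and 5 below. None of the 9 differed 2-fold, as 0.334% of all genes did. Ogdh alone had an interval that left out 1, at 0.833-fold (0.735 to 0.944), with 97.7 in control positive against 117 in control negative; 9.34% of all genes had such an interval. Among bezafibrate mice, 8 of the 9 genes were lower in the positive gate, where 51.6% of all genes were, with a median of -0.30 and Idh3a as the exception. None differed 2-fold, as 0.256% of all genes did. Mdh2 had the lowest ratio, 0.728 (0.649 to 0.816), with 76.9 in bezafibrate positive against 106 in bezafibrate negative. Summed over the 9 genes, the ratio of positive over negative was 0.827 (0.796 to 0.858) with bezafibrate and 0.967 (0.913 to 1.02) in control. The Rn45s share, 18.5% in bezafibrate positive against 10.5% in bezafibrate negative, moved with that difference. By totals without Rn45s the median was -0.15 and the same 8 genes were lower. At the deposited scaling such a drop was not particular to these genes. Other cycle subunits (8 of 9, median -0.27), mitochondrial beta-oxidation genes (16 of 18, -0.31) and complex I subunits (31 of 37, -0.29) were mostly lower too. So were cytosolic ribosomal proteins (60 of 73, -0.25), while of 4 other pyruvate dehydrogenase subunits 2 were lower.

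The high gate of bezafibrate mice was close to the positive gate. For bezafibrate high minus bezafibrate positive, the median was 0.05, with 6 genes above 0, where 49.9% of all genes lay, and none at 2-fold, as 0.145% of all genes were. Mdh2 at 1.19-fold (1.06 to 1.34), Suclg1 at 1.17-fold (1.02 to 1.35) and Sdha at 1.10-fold (1.01 to 1.19) had intervals above 1, as 8.21% of all genes did. By totals without Rn45s the interval of Mdh2 stayed above 1 (1.03 to 1.31), while those of Suclg1 (0.997 to 1.32) and Sdha (0.988 to 1.17) took in 1. Dlst at 0.02 and Fh1 at -0.05 on the log2 scale took the other sign, Dlst by totals without Rn45s and Fh1 by column totals. Against bezafibrate negative, bezafibrate high was lower for 8 of the 9 genes, where 53.0% of all genes were, with a median of -0.21, Suclg1 as the exception and none at 2-fold, as 0.267% of all genes were. Of the 3 bezafibrate gates, the positive gate therefore held the lowest value for 6 of the 9 genes (Pdha1, Cs, Dlst, Suclg1, Sdha and Mdh2). This count is at the deposited scaling, and by totals without Rn45s Dlst was lowest in the high gate instead. For Pdha1, Cs and Dlst the interval of high over positive took in 1, so these gates are not separated for them. None of the 9 genes was lowest in the negative gate and highest in the high gate. The share of all genes with either order was not counted.

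The difference of the gate differences, bezafibrate less control, had a median of -0.23 over the 9 genes against -0.03 over all genes. It lay below 0 for 7 genes, where 53.1% of all genes did. Its 95% counting interval lay wholly below 0 for Cs (-0.52 on the log2 scale of the ratios, interval -0.87 to -0.17), Dlst (-0.38, -0.59 to -0.16) and Fh1 (-0.34, -0.64 to -0.04), 3 of 9 genes beside 13.6% of all genes. Totals without Rn45s moved it toward 0: to -0.38 (-0.72 to -0.03) for Cs, -0.23 (-0.45 to -0.02) for Dlst and -0.19 (-0.49 to 0.11) for Fh1, whose interval then took in 0. For these 3 genes the positive gate was lower than the negative gate with bezafibrate and higher in control, a pairing of signs that 27.9% of all genes had.

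**Figure D5:**
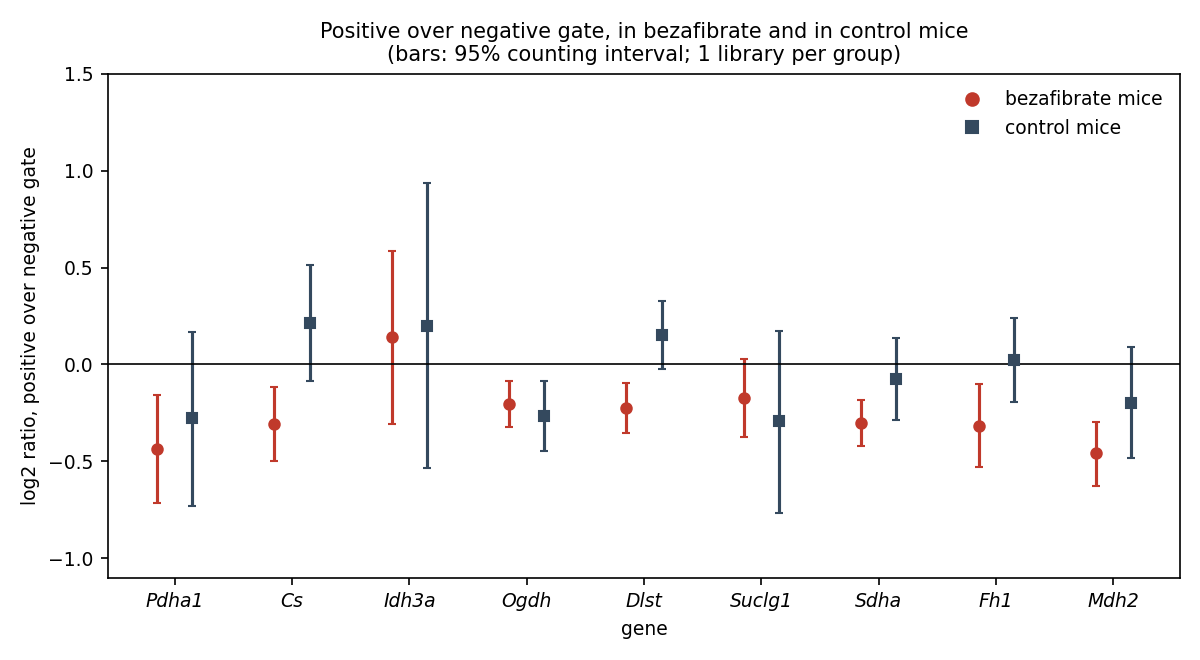
Log2 ratio of the positive over the negative gate (y axis) for each of the 9 genes (x axis), with bezafibrate as red circles left of control as dark squares, and 95% counting intervals. With bezafibrate 8 genes lie under 0, down to Mdh2 at a ratio of 0.728, while the control points scatter on both sides of 0 with wider intervals.

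Other subunits of the cycle went the way of the 8 genes. All 9 described (Idh3b, Idh3g, Idh2, Dld, Sucla2, Suclg2, Sdhb, Sdhc and Sdhd) passed the filter and lay above 0 in both gates, apart from Idh3b in the negative gate once Rn45s was left out of the totals, with medians of 1.33 in the negative and 0.81 in the positive gate. Of these, 6 were at least 2-fold higher in the negative gate (Idh2, Dld, Suclg2, Sdhb, Sdhc and Sdhd) and 3 in the positive gate (Dld, Sdhc and Sdhd). By totals without Rn45s these counts were 5, without Suclg2, and 1, Sdhc, and by column totals 7 and 6. Idh2, the NADP-dependent mitochondrial isocitrate dehydrogenase, had 62.1 in bezafibrate negative against 24.0 in control negative and 43.0 in bezafibrate positive against 26.3 in control positive. Idh3b, a partner of Idh3a, had ratios of 1.12 (0.974 to 1.29) and 1.14 (0.987 to 1.32). These intervals overlap those of Idh3a (1.21 to 2.83 and 1.17 to 2.68), so the ratios of these subunits are not separated.

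Within the pyruvate dehydrogenase complex, Dld, the dihydrolipoamide dehydrogenase that also serves the oxoglutarate complex, was 2.66-fold higher (2.08 to 3.43) in the negative and 2.13-fold higher (1.65 to 2.77) in the positive gate. It was the 1 of the 4 other subunits past 2-fold in either gate, and in the positive gate it was not by totals without Rn45s. Pdhb, the beta partner of Pdha1, had 47.7 in bezafibrate negative against 44.8 in control negative and 52.0 in bezafibrate positive against 47.6 in control positive, with ratios of 1.07 (0.898 to 1.27) and 1.09 (0.918 to 1.30). Its difference of 0.09 in the negative gate turned to -0.16 by totals without Rn45s. The acetyl-transferring subunit Dlat was at 1.98-fold and 1.75-fold, and the binding protein Pdhx at 1.61-fold and 1.22-fold.

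Of the 7 kinases and phosphatases that set the activity of the complex, 6 were in the table and 5 passed the filter. The kinases Pdk2 (111 in bezafibrate negative against 42.5 in control negative) and Pdk1 (31.6 in bezafibrate negative against 15.2 in control negative) were at least 2-fold higher in the negative gate, while in the positive gate they were at 1.87-fold and 1.11-fold. Over the alternatives tried, the difference of Pdk1 in the negative gate fell to 0.76, under 2-fold. Pdk4, a kinase known as a target of peroxisome proliferator-activated receptors, was lower: it had 3.87 in bezafibrate negative against 8.62 in control negative and 4.89 in bezafibrate positive against 11.0 in control positive. These are ratios of 0.448 (0.269 to 0.737) and 0.444 (0.275 to 0.708), the second of them past 2-fold on the log2(value + pseudocount) scale. Over the alternatives tried, that second difference ran between -1.14 and -0.69. The phosphatase subunits Pdp2 and Pdpr had differences of 0.19 and 0.28 in the negative and 0.23 and 0.05 in the positive gate. Pdp1 did not pass the filter, at no more than 0.400 in any of the 5 libraries.

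Of the 7 assembly and lipoylation genes, 2 passed the filter. Sdhaf2, which attaches the flavin to Sdha, was 2.95-fold higher (1.91 to 4.70) in the negative and 1.71-fold (1.12 to 2.68) in the positive gate, and the lipoate synthase Lias was at 1.95-fold and 1.51-fold. Of 17 genes of pyruvate entry, anaplerosis and export, 14 passed the filter, 3 were at least 2-fold higher in the negative gate and 1 in the positive gate, with 1 lower in each. Mpc1, a subunit of the mitochondrial pyruvate carrier, had 46.1 in bezafibrate negative against 9.24 in control negative and 30.1 in bezafibrate positive against 12.7 in control positive. The others past 2-fold in the negative gate were Got2, the mitochondrial aspartate aminotransferase, at 2.57-fold, and the aspartate-glutamate carrier Slc25a13 at 2.15-fold. Over the alternatives tried, the difference of Slc25a13 in the negative gate fell to 0.84 and that of Mpc1 in the positive gate to 0.99. The glutamate carrier Slc25a22 was lower, with 141 in bezafibrate negative against 435 in control negative and 145 in bezafibrate positive against 414 in control positive. Pck1, the enzyme that draws oxaloacetate off into glucose synthesis and the most abundant of that list, was at 0.806-fold in the negative gate and 0.880-fold in the positive gate, the second of which turned above 1 by column totals. Pyruvate carboxylase Pcx, which refills oxaloacetate, was at 1.68-fold and 1.44-fold.

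The cytosolic enzymes that mirror steps of the cycle were among the larger differences. Idh1 had 179 in bezafibrate negative against 51.9 in control negative and 146 in bezafibrate positive against 58.4 in control positive. Mdh1 had 291 in bezafibrate negative against 90.7 in control negative, and 216 in bezafibrate positive against 91.6 in control positive. Aco1, which also senses iron, was at 2.28-fold and 2.07-fold, but its difference fell to 0.93 in each gate over the alternatives tried. Got1, the cytosolic aspartate aminotransferase, was lower, with 179 in bezafibrate negative against 445 in control negative and 166 in bezafibrate positive against 414 in control positive. Thus Got1 and the mitochondrial Got2 differed in opposite directions, as Fh1 and Mdh2 did.

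The shift of the 9 genes can be set beside other mitochondrial lists. The 18 genes of mitochondrial beta-oxidation had medians of 1.34 in the negative and 0.88 in the positive gate, with 12 and 8 at least 2-fold higher, among them Hadhb at 3.80-fold and 2.92-fold, while Eci2 lay below 0 in both gates (0.732-fold and 0.766-fold). Cpt1a, which gates the entry of fatty acids, had 366 in bezafibrate negative against 342 in control negative and 326 in bezafibrate positive against 325 in control positive, and the sign of both differences turned by totals without Rn45s. The 37 subunits of complex I that passed had 1.09 and 0.82, with 22 and 9 at least 2-fold higher. Among 63 mitochondrial ribosomal proteins the medians were 0.73 and 0.38, with 13 and 6 higher and 1, Mrpl18, lower in each gate. The 73 cytosolic ribosomal proteins, genes outside mitochondria, had 0.76 and 0.48, with 18 and 2 at least 2-fold higher. A median above that of all genes was thus not particular to the cycle in these libraries.

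The genes whose profile over the 5 libraries was most like the mean profile of the 9 genes, by Euclidean distance of centred log2(value + pseudocount) values and outside all lists here, were Ei24 (0.050), Canx (0.058), Adprm (0.061), Cyp2j6 (0.065) and Cfi (0.066). Ei24 had 74.0 in bezafibrate negative against 42.3 in control negative, 62.3 in bezafibrate positive against 39.0 in control positive, and 65.6 in bezafibrate high. Of the 9 genes, Cs (0.194), Pdha1 (0.196) and Ogdh (0.212) lay nearest to the mean profile, and Suclg1 (1.20) and Fh1 (1.39) farthest from it.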

How the data were processed

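The 1 deposited table holds the authors' normalised signal per gene (13966 genes, 5 libraries). Per the labels' protocols, ribosomal RNA was depleted and directional libraries were read as pairs of 150 nt. The submitters' processing notes name genome build mm10 and the tools Bowtie2, edgeR, RSEM and Trimmomatic 0.36; the sources used here do not give their roles, the annotation or the strand setting. Whole reads were recovered for 100% of values (tolerance 0.001 reads), and the values equal these reads scaled by edgeR's TMM library sizes (largest deviation 8.88e-14%).

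Differences are of log2(value + pseudocount), the pseudocount being 1.0035, with a filter at a mean of 5.02; this scale understates low genes. A gene counted as called at 2-fold, a difference of 1. The additive fit used limma 3.58.1 in R 4.3.3, with Benjamini-Hochberg adjustment at 0.05. edgeR 4.0.16 on the recovered reads was added once the data had been seen, and DESeq2 1.42.0 gave other size factors. The remaining steps ran in Python 3.11.15 with scipy 1.17.1, pandas 2.3.3 and numpy 2.4.6. The limma fit and the 2-fold rule were tried on simulated reads with counting error only. Those reads held no difference between gates in how they compare by treatment, which is the fit's error here, so they cannot check its calls.

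The 9 genes and the lists were chosen with earlier results of these data known. From each other list, genes past 2-fold, against the list's median, highest or lowest by level or nearest to 0 could be named, of long lists mostly counts are printed, and further genes were chosen with their values known. Coordinates and lengths are from GENCODE for GRCm38 (95.8% of symbols matched 1 gene), promoters from RefSeq. Of the lists, 1 gene is not reported here and entered no list count.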

Additional observations from a re-analysis of the deposited data

Results flagged for a closer look

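The positive and negative gates differed in opposite directions in bezafibrate and control mice for 3 of the 9 genes, on the log2(value + pseudocount) scale. Over all genes, 52.1% had opposite signs, and 27.9% were below 0 with bezafibrate and above 0 in control, as these 3 were. For Cs, citrate synthase, the positive minus negative difference was -0.30 with bezafibrate and 0.21 in control. Dlst, of the oxoglutarate dehydrogenase complex, had -0.22 with bezafibrate and 0.15 in control. Fh1, fumarate hydratase, had -0.31 with bezafibrate and 0.021 in control. At the deposited scaling the control ratios had counting intervals that take in 1, from 0.944 to 1.43 for Cs, 0.983 to 1.26 for Dlst and 0.873 to 1.18 for Fh1. With 1 library in each gate the difference between treatments was not tested.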

How the results depend on the processing

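No paired analysis was possible because each group has 1 library, and for the same reason no replicate could be left out. TMM scaling gave the deposited values again. The median of the 9 genes kept its sign in every comparison. For bezafibrate minus control in the negative gate it was 1.07 by column totals, 0.60 by totals without Rn45s, 0.74 with 5 times the pseudocount and 0.93 with a filter at 20 pseudocounts, which Idh3a did not pass. In the positive gate it was 0.90, 0.58 and 0.59 under the first 3 of these. By column totals the median was -0.14 for bezafibrate high minus negative. Totals without Rn45s gave -0.10 for that comparison, -0.15 for bezafibrate positive minus negative and -0.084 for the gate by treatment difference, and left 2 genes at least 2-fold higher in the negative and 1 in the positive gate. Over all genes in the negative gate, 2-fold higher calls numbered 1444 by column totals, 545 without Rn45s and 574 with the stricter filter, and lower calls 267, 1053 and 300, 317 with the larger pseudocount and 809 with no filter. In the positive gate, higher calls numbered 820 by column totals, 273 with the larger pseudocount and also with the stricter filter, and 665 with no filter, and lower calls 131, 138, 132 and 421 under the same settings. Between gates, 2-fold counts over all genes ran between 1 and 149. The additive fit called 2196 genes higher and 1868 lower, against 1435 higher with the stricter filter and 1038 lower by column totals, where Fh1 was not called. edgeR on the recovered reads called 2162 higher and 1944 lower. Of the 9 genes, 8 were called higher as deposited and by column totals and 7 in every other setting; Dlst was the gene lost, or Idh3a, left out by the stricter filter. With exon unions as length, 2 genes kept their place in the order per kb. Reads per gene limit Idh3a most.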
